A study of Mus musculus with 19 samples.

Results

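The response of Mcm8 knockout mouse hearts to LCWE was described across all expressed genes. It was read from 8 of the 19 RNA sequencing libraries of the series: 5 from Mcm8 knockout (Mcm8-/-) hearts after LCWE and 3 from Mcm8 knockout hearts after PBS. The other 11 libraries are from wild-type hearts, 5 after PBS and 6 after LCWE, and serve here for the estimate of spread between libraries and as values set beside the knockout. The labels give genotype, treatment and heart tissue for every library, and no age, sex, strain background, dose, time after injection or design of the knockout allele. Whether each library came from an animal of its own is not stated in them, and a p-value here measures spread between libraries, which may be technical.

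LCWE is a cell wall extract of the bacterium Lactobacillus casei. Injected into mice it gives a coronary and aortic vasculitis with macrophage and neutrophil infiltration that is used as a model of Kawasaki disease, and PBS is the saline control. MCM8 is a DNA helicase of the minichromosome maintenance family that works with MCM9 in homologous recombination, and the study's title gives it a part in mitophagy, the removal of damaged mitochondria. Heart muscle draws most of its energy from fatty acids, which capillary endothelium takes up from blood and mitochondria oxidise, so genes of leukocytes, vessels, fatty acid oxidation, mitophagy and stress responses were examined. The question the comparison answers is which genes differed between LCWE and PBS where Mcm8 was missing.

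Levels are in CPM, counts scaled to a common library size, and are compared only between libraries of the same gene. Differences are log2 fold changes, LCWE minus PBS, with the standard error of the fit. A gene is called, or said to rise or fall, where its Benjamini-Hochberg adjusted p over 14301 tested genes in edgeR's quasi-likelihood test was under 0.05. Labels carry sample numbers of unstated meaning: PBS library 2 and LCWE libraries 4 and 5 are numbered under 100, PBS library 1 and LCWE libraries 1 to 3 from 100 to under 200, and PBS library 3 above 200. Mcm8 (chromosome 2, 132816141 to 132844197, GRCm38) was at 0.910, 0.617 and 0.753 CPM after PBS and 0.155, 0.130, 0.749, 0.339 and 0.586 CPM after LCWE, from 2 to 13 counts a library, against 2.60 to 5.19 CPM in the 11 wild-type libraries. All 8 knockout libraries lay below every wild-type library. Total counts of the 8 libraries were 12648090 to 15727823 and 16539 to 17057 genes had at least 1 count. The heart muscle gene Myh6 was at 43079.5, 51456 and 37077 CPM after PBS and 50675, 50832, 52092, 37081 and 49580.5 CPM after LCWE, abundant in every library. PBS library 1 stood apart on the first principal component of the 8 libraries, which held 39.1% of the variance, at -84.8 against -26.9 to 27.5 for the other 7. PBS library 1 and LCWE libraries 1, 3 and 5 held Y-linked transcripts. PBS libraries 2 and 3 and LCWE library 4 held Xist, and LCWE library 2 held neither in quantity. Of the wild-type libraries LCWE library 1 held Y-linked transcripts (131 CPM), and all others held Xist, at 171 to 242 CPM. Myh7, the slow myosin heavy chain, was at 14213, 803 and 13251 CPM after PBS and 851, 1701, 729.9, 16702 and 20424 CPM after LCWE, so that it split both groups.

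LCWE changed 415 of 14301 genes in Mcm8 knockout hearts by edgeR, of which 298 fell and the rest rose. The called genes are 2.9% of those tested, the raised genes 0.818% and the lowered genes 2.08%. These shares are those of edgeR with all libraries, and stand beside every list count of that fit below. Other fits and tools called other totals, which are given below, and their list counts are set against those. A single called gene in a list is not read as a result about that list. Raised genes had a median log2 fold change of 1.06 (range 0.30 to 4.62) and lowered genes of -0.81 (range -4.89 to -0.41), beside 0.01 for all tested genes. At least 2-fold differences were found for 60 raised and 91 lowered genes. The PBS and LCWE libraries did not overlap for 103 of the raised genes and 147 of the 298 lowered genes, beside 4.91% and 3.7% of all tested genes that did not overlap in those directions. With library totals alone as the scaling, 97 genes rose and 132 fell, so that the lowered share was 57.6% in place of 71.8%.

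The count rests on a few libraries. Without PBS library 1 a single gene was called, Cyp4b1, without PBS library 3 it was 57, and without PBS library 2 it was 2935. Leaving out LCWE library 1, 3 or 5 left 34, 32 and 19 called genes, and leaving out LCWE library 2 or 4 left 471 and 329. Leaving out 1 wild-type PBS library gave 210 to 316 called genes, and 1 wild-type LCWE library 246 to 741, the highest without replicate 3. With the 8 knockout libraries fitted alone, no gene was called by edgeR (2371 at an unadjusted p under 0.05, smallest adjusted p 0.177). In that fit 409 of the 415 genes were tested with the sign they had with all libraries. For 270 of the 298 lowered genes and 93 of the raised genes PBS library 2 was the PBS library nearest to the LCWE libraries (90.6% and 79.5%), beside 55.8% and 58.3% of all genes of the same sign. PBS library 1 was the farthest for 231 lowered and 77 raised genes (77.5% and 65.8%), beside 55.1% and 54.7%. These positions come from the libraries that chose the genes and are a description.

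**Figure D1:**
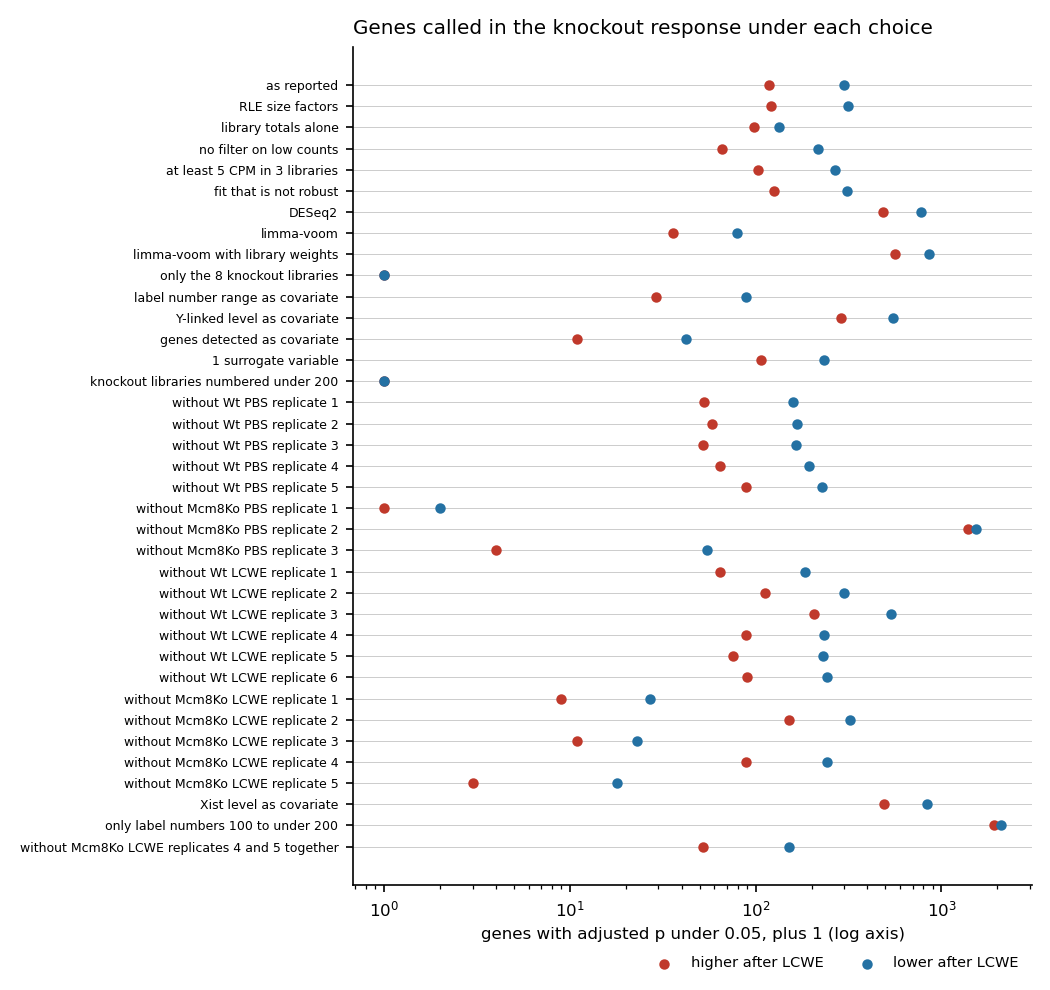
Number of genes called between LCWE and PBS in Mcm8 knockout hearts (x axis, number plus 1 on a log axis) with all libraries (as reported) and under each alternative scaling, filter, tool, covariate or left-out library (y axis), as a red point for raised and a blue point for lowered genes. The counts in both directions sum to 415 with all 19 libraries, 1 without PBS library 1 and 2935 without PBS library 2. The setting of only label numbers 100 to under 200 holds 1 knockout PBS library, so its points are not read as a result.

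Transcripts of macrophages were among the raised genes. Of 24 tested macrophage and monocyte genes 6 rose and none fell, namely Mrc1, Ptprc, Lst1, Itgam, Aif1 and Tyrobp, and all 24 had a log2 fold change above 0 (median 1.41), beside 50.9% of all tested genes. Between wild-type LCWE and PBS hearts the same 24 genes had a median of 0.66, and none was called. Mrc1 (chromosome 2, 14229392 to 14332057), the mannose receptor of tissue macrophages, was at 10.8, 20.3 and 11.8 CPM after PBS and 32.2, 31.5, 28.5, 49.9 and 41.9 CPM after LCWE (1.36 ± 0.25, edgeR adjusted p = 0.0182). Every LCWE library was above every PBS library, and LCWE libraries 4 and 5 were the highest. Ptprc (chromosome 1, 138062861 to 138175708), which encodes the leukocyte surface phosphatase CD45, was at 4.20, 6.31 and 5.65 CPM after PBS and 9.66, 9.996, 11.2, 18.6 and 20.2 CPM after LCWE (1.37 ± 0.27, edgeR adjusted p = 0.0261). The groups again did not overlap, with LCWE libraries 4 and 5 at the top. In bulk tissue more cells of a type and more RNA per cell cannot be told apart.

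Lst1, a small myeloid membrane protein, was at 0.280, 0.754 and 0.301 CPM after PBS and 1.93, 2.40, 1.95, 4.68 and 3.71 CPM after LCWE (2.69 ± 0.55, edgeR adjusted p = 0.0299), from 4, 11 and 4 counts after PBS. Aif1, the calcium-binding macrophage protein IBA1, was at 0.280, 2.19 and 0.452 CPM after PBS and 3.94, 2.21, 2.62, 6.23 and 5.596 CPM after LCWE (2.06 ± 0.55, edgeR adjusted p = 0.0461). In both genes every LCWE library exceeded every PBS library, for Aif1 by a narrow margin between PBS library 2 and LCWE library 2. Itgam, the CD11b integrin of myeloid cells, was at 2.66, 6.51 and 3.92 CPM after PBS and 6.11, 8.18, 8.02, 29.1 and 20.3 CPM after LCWE (1.72 ± 0.45, edgeR adjusted p = 0.0446). LCWE library 1 lay under PBS library 2, so the Itgam groups overlapped. Tyrobp, the signalling adaptor of myeloid receptors, was at 4.34, 11.5 and 4.82 CPM after PBS and 15.5, 12.98, 17.0, 39.6 and 21.1 CPM after LCWE (1.62 ± 0.43, edgeR adjusted p = 0.0496), without overlap. F13a1, the coagulation factor XIII subunit found in resident macrophages, was at 15.5, 34.1 and 14.8 CPM after PBS and 45.2, 38.5, 43.4, 94.7 and 44.6 CPM after LCWE (1.31 ± 0.33, edgeR adjusted p = 0.0425), with LCWE library 4 far above the rest. It and Mrc1 were the 2 called genes of 14 tested resident macrophage genes, whose median was 0.98.

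Other raised genes of large size are also leukocyte genes by common knowledge, and were named by the size rule. Fyb, an adaptor of T cells and myeloid cells, was at 1.89, 3.70 and 2.11 CPM after PBS and 5.95, 6.04, 4.42, 18.7 and 11.8 CPM after LCWE (1.87 ± 0.41, edgeR adjusted p = 0.0312). Pik3ap1, an adaptor that links receptors to PI3 kinase in B cells and macrophages, was at 1.82, 3.50 and 1.88 CPM after PBS and 8.58, 5.06, 4.12, 18.5 and 16.9 CPM after LCWE (2.14 ± 0.47, edgeR adjusted p = 0.0312). Both had LCWE libraries 4 and 5 as the highest and no overlap. Cd72, a receptor of B cells, rose 5.39-fold in the fit (2.43 ± 0.61, edgeR adjusted p = 0.0416), although LCWE library 2 lay below PBS library 2. Pld4, an endolysosomal nuclease of myeloid cells, rose by 1.65 ± 0.39, and Lcp1, the leukocyte actin-bundling protein L-plastin, by 1.52 ± 0.36 on the log2 scale (edgeR adjusted p = 0.0357 and 0.0373). Rac2, the GTPase of the phagocyte oxidase, was at 2.17, 6.93 and 1.66 CPM after PBS and 8.12, 8.50, 9.59, 22.97 and 15.9 CPM after LCWE (1.85 ± 0.48, edgeR adjusted p = 0.044), the 1 called gene of 8 tested oxidase genes.

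**Figure D2:**
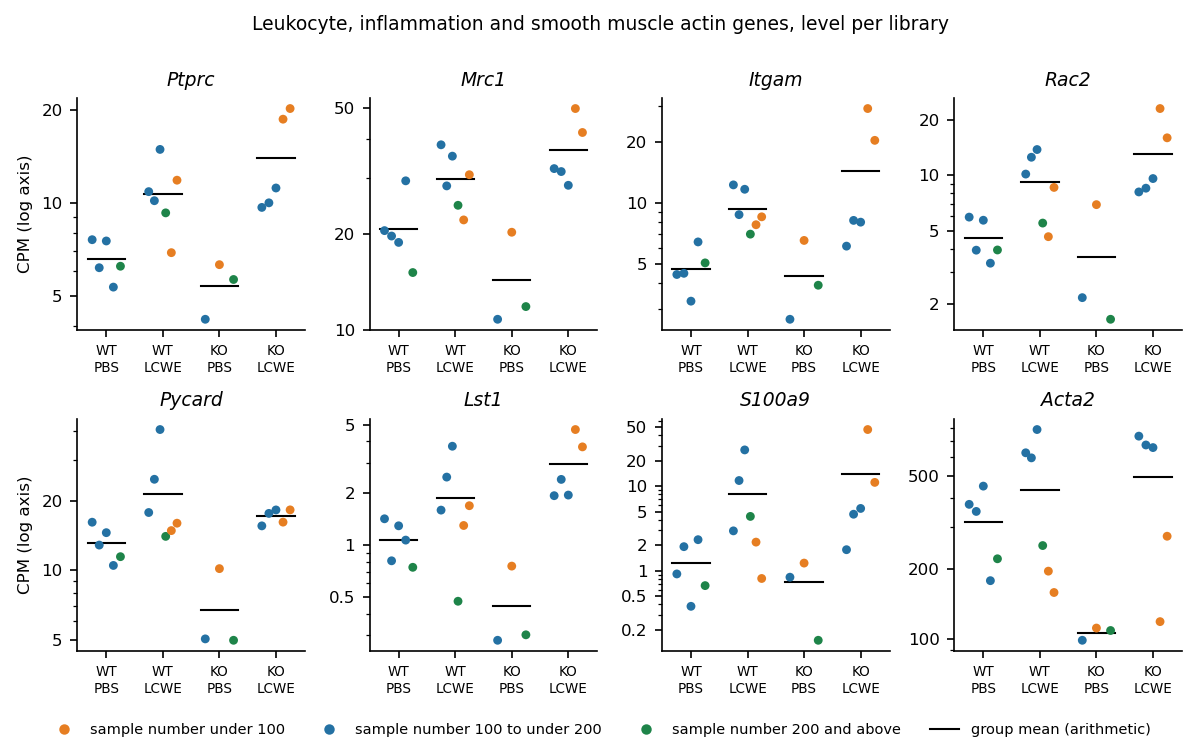
CPM on a log axis (y) of 8 leukocyte, inflammation and smooth muscle actin genes in each Mcm8 knockout library after PBS (3 points) and LCWE (5 points), with wild-type libraries beside them, colours for the range of the sample number and a bar at each group mean. Mrc1 in the 5 LCWE libraries lies between 28.5 and 49.9 CPM, above all 3 PBS libraries, and LCWE libraries 4 and 5 are the highest for Mrc1, Ptprc and Itgam.

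The macrophage transcripts summed to 226, 468 and 197 CPM after PBS and 502, 449.6, 529.8, 1366 and 884 CPM after LCWE. PBS library 2 exceeded LCWE library 2 in this sum, and LCWE libraries 4 and 5 were the highest. Without PBS library 1, PBS library 3 or LCWE library 5 no gene of the list was called, without PBS library 2 it was 19, without LCWE library 2 it was 11, without wild-type LCWE library 3 it was 10, without wild-type LCWE library 4 it was 5, and without any other single library it was 3. Without LCWE libraries 4 and 5 together 1 gene was called and the median was 0.76. Within the libraries numbered under 100 in the labels, 1 after PBS and 2 after LCWE, the median difference was 1.31, and within those numbered 100 to under 200, again 1 after PBS, it was 1.23.

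Neutrophil and lymphocyte transcripts had large positive log2 fold changes, but none passed the edgeR test. All 10 tested neutrophil genes had a log2 fold change above 0 with a median of 3.01, and edgeR called none. S100a9, a calprotectin subunit abundant in neutrophils, was at 0.840, 1.23 and 0.151 CPM after PBS and 1.78, 4.67, 5.47, 46.96 and 11.1 CPM after LCWE (4.21 ± 1.34, edgeR adjusted p = 0.0828, not called). S100a8, its partner, was at 0.350, 0.754 and 0.301 CPM after PBS and 1.39, 2.27, 1.87, 21.4 and 5.14 CPM after LCWE (3.74 ± 1.22, edgeR adjusted p = 0.0853, not called). In both genes the groups did not overlap, and LCWE library 4 was far above the other LCWE libraries. The 11 T and NK cell genes had a median of 1.76 and 0 calls, as did 19 chemokine genes at 0.89, 24 interferon-response genes at 0.35 and 8 genes of MHC class II at 0.66. Between wild-type LCWE and PBS hearts the medians of these lists, in the same order, were 1.86, 0.53, 0.13 and 0.38. That of the neutrophil genes was 1.84 in wild type. The knockout medians moved with single libraries. The MHC class II median was 0.12 without PBS library 1 and 2.66, with 7 called, without PBS library 2, and within the libraries numbered under 100 all 8 genes lay below 0 (median -0.37). The interferon median ran from 0.08 without PBS library 3 to 0.92, with 4 called, without PBS library 2, and 7 T and NK cell genes were called without that library. The calls also moved with the tool. DESeq2 called 5 neutrophil, 4 chemokine and 2 interferon-response genes as higher, and 0 of the T and NK cell and MHC class II genes. Of all 14301 tested genes it called 486 as higher. Limma-voom with library weights called 6 MHC class II genes and 1 neutrophil gene as higher, and 0 of the other lists named here. Its raised genes were 560 of all 14301 tested. Cxcl13, a chemokine of B cell areas, was at 0, 0.137 and 0.0753 CPM after PBS and 0.155, 0.130, 0.1499, 20.9 and 1.30 CPM after LCWE (5.83 ± 1.96, edgeR adjusted p = 0.0911, not called), with LCWE library 4 far above the other 7 libraries.

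Among inflammatory effectors, Saa3 and Pycard rose. Saa3 (chromosome 7, 46711998 to 46715700), an acute-phase serum amyloid A protein made outside the liver, was at 0.07002, 0.411 and 0.226 CPM after PBS and 1.24, 1.30, 0.674, 16.8 and 10.02 CPM after LCWE (4.62 ± 1.15, edgeR adjusted p = 0.0418), from 1, 6 and 3 counts after PBS and 9 to 248 after LCWE. Every LCWE library was above every PBS library, with libraries 4 and 5 far above libraries 1 to 3. Saa3 was the 1 called gene of 17 tested complement and acute-phase genes (median 0.79). The liver transcript Alb lay at 2.17, 94.8 and 313 CPM after PBS and at 72.7 to 171 CPM after LCWE, and its part in the acute-phase values was not tested. Pycard (chromosome 7, 127989708 to 127993867), the ASC adaptor of inflammasomes, was at 5.04, 10.1 and 4.97 CPM after PBS and 15.5, 17.6, 18.2, 16.1 and 18.2 CPM after LCWE (1.35 ± 0.32, edgeR adjusted p = 0.0349). The LCWE libraries lay close together above all PBS libraries. It was the 1 called of 14 inflammasome genes (median 0.49). Il1b, an inflammasome product, was at 0.140, 0.686 and 0.226 CPM after PBS and 0.386, 1.04, 0.300, 1.69 and 1.43 CPM after LCWE (1.45 ± 0.77, edgeR adjusted p = 0.261, not called), and these groups overlapped.

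Genes of fatty acid oxidation were among the lowered genes. Of 30 tested genes 10 fell and 0 rose, beside 2.08% of all tested genes that fell. Of the 30 genes 29 had a log2 fold change below 0, with a median of -0.49, beside 7025 of all 14301 tested genes below 0. In wild-type hearts the median of the list was 0.01. Called genes span uptake, transport and the oxidation spiral: the fatty acid carrier Fabp3, the mitochondrial carnitine carrier Slc25a20, the dehydrogenase Acadm, Hadha and Acaa2 of the later steps, Decr1, Eci1 and Eci2 for unsaturated chains, and Etfa and Etfdh, which pass electrons to the respiratory chain. Etfdh (chromosome 3, 79603788 to 79629500) was at 849, 590.3 and 924 CPM after PBS and 454, 357, 541, 517 and 395 CPM after LCWE (-0.80 ± 0.17, edgeR adjusted p = 0.0301). Every LCWE library was below every PBS library, the narrowest gap being PBS library 2 against LCWE library 3. Fabp3 was at 6890.4, 4440.1 and 6978 CPM after PBS and 2968, 2532, 3678, 5399.6 and 2445 CPM after LCWE (-0.84 ± 0.22, edgeR adjusted p = 0.0426). LCWE library 4 exceeded PBS library 2, so the Fabp3 groups overlapped.

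Acadm, the medium-chain acyl-CoA dehydrogenase, was at 1349, 1042 and 1400.0 CPM after PBS and 759, 674, 901, 962 and 867 CPM after LCWE (-0.60 ± 0.14, edgeR adjusted p = 0.0357), without overlap. Etfa was at 846, 610.2 and 748 CPM after PBS and 523, 454, 558, 506 and 567 CPM after LCWE (-0.49 ± 0.12, edgeR adjusted p = 0.0378), also without overlap. Hadha, the alpha subunit of the trifunctional protein, was at 2797, 1895 and 3161 CPM after PBS and 1350.2, 1161, 1622, 2121 and 1499 CPM after LCWE (-0.76 ± 0.20, edgeR adjusted p = 0.0437). LCWE library 4 lay above PBS library 2 for Hadha. The other called genes, Slc25a20, Eci1, Acaa2, Decr1 and Eci2, had log2 fold changes between -0.50 (Eci1) and -0.81 (Decr1). Plin5, which coats lipid droplets at mitochondria, fell by 0.87 ± 0.23 on the log2 scale (edgeR adjusted p = 0.0461), and Pnpla2, the lipase ATGL that opens triglyceride stores, was at 1967, 617 and 1175 CPM after PBS and 616, 344, 589, 854 and 493 CPM after LCWE (-1.11 ± 0.28, edgeR adjusted p = 0.0418), with overlap between PBS library 2 and LCWE library 4.

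The summed level of the fatty acid oxidation genes was 27402, 22325 and 29618 CPM after PBS and 17817, 12907, 20577, 23884 and 14984 CPM after LCWE. PBS library 2 was lower than LCWE library 4 in this sum. No gene of the list was called without PBS library 1, PBS library 3, LCWE library 1 or LCWE library 5, 1 was called without LCWE library 3, 3 without LCWE library 2, 3 to 5 without any 1 wild-type PBS library, 4 without wild-type LCWE library 1, 6 without wild-type LCWE library 4 or 6, and 15 without PBS library 2. The median of the list stayed between -0.61 and -0.44 over these fits. It was -0.18 within the libraries numbered under 100 and -0.67 within those numbered 100 to under 200. With the label number range or the number of genes detected as covariate, 0 genes of the list were called. Fitted alone, the 8 knockout libraries also gave 0. Calls of lowered genes in the list were 1 by limma-voom, 4 with library totals alone, 16 by DESeq2 and 15 by limma-voom with library weights. Over all 14301 tested genes these fits called 78, 132, 774 and 855 as lower, in the same order. The 43 genes of oxidative phosphorylation had a median of 0.07 and the 23 glycolysis genes of 0.04, with 0 called in each, and their difference from the fatty acid genes was not tested. In wild type the medians of oxidative phosphorylation and glycolysis were 0.26 and 0.15.

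Endothelial genes were also among the lowered genes. Of 15 tested arterial endothelial and Notch genes 4 fell and 0 rose (median -0.52, 14 below 0): Sox17, Efnb2, Hey1 and Hey2. In wild type the median of the list was -0.17, with 3 of the 15 genes above 0. Sox17 (chromosome 1, 4490931 to 4497354), an arterial transcription factor, was at 76.9, 32.8 and 52.4 CPM after PBS and 25.8, 26.0, 28.9, 33.9 and 28.8 CPM after LCWE (-0.91 ± 0.22, edgeR adjusted p = 0.0355). Only PBS libraries 1 and 3 stood above the LCWE range, and LCWE library 4 lay above PBS library 2. Hey1, a Notch target that acts as a repressor, was at 31.4, 22.6 and 29.8 CPM after PBS and 12.4, 22.5, 12.1, 15.04 and 11.5 CPM after LCWE (-0.92 ± 0.23, edgeR adjusted p = 0.0418), without overlap by a narrow margin between PBS library 2 and LCWE library 2. Hey2, a related Notch target of arterial cells, was at 19.3, 5.07 and 14.2 CPM after PBS and 6.88, 3.31, 5.77, 6.03 and 7.16 CPM after LCWE (-1.14 ± 0.30, edgeR adjusted p = 0.0438), and here the groups overlapped. Efnb2, the arterial ephrin ligand, was at 60.5, 39.4 and 64.4 CPM after PBS and 42.1, 38.8, 33.9, 26.5 and 30.5 CPM after LCWE (-0.67 ± 0.17, edgeR adjusted p = 0.0416), with LCWE library 1 above PBS library 2.

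Of 18 general endothelial genes 1 fell, Ptprb, the endothelial phosphatase VE-PTP, at 375, 205 and 228 CPM after PBS and 194, 182, 166, 141 and 181 CPM after LCWE (-0.64 ± 0.17, edgeR adjusted p = 0.0446). The groups of Ptprb did not overlap. The median of the 18 genes was -0.24, and Pecam1, which marks all endothelium, was at 371, 284 and 296 CPM after PBS and 286, 271, 255, 218 and 223 CPM after LCWE (-0.34 ± 0.15, edgeR adjusted p = 0.174, not called). Nr2f2, the transcription factor of veins, was the 1 called of 10 venous and lymphatic genes, at 23.5, 10.97 and 21.8 CPM after PBS and 12.2, 11.6, 12.4, 8.40 and 10.9 CPM after LCWE (-0.76 ± 0.18, edgeR adjusted p = 0.0365), with overlap. Of 14 genes of capillary fatty acid handling 1 fell: Cd36, the fatty acid translocase, at 2065, 1378 and 2884 CPM after PBS and 1253, 821, 1287, 1581 and 942 CPM after LCWE (-0.84 ± 0.21, edgeR adjusted p = 0.0402). PBS library 2 lay within the LCWE range of Cd36. Lpl, the lipoprotein lipase that frees fatty acids at the capillary wall, was at 9568, 4625 and 7192 CPM after PBS and 3560.1, 3099.7, 3790.4, 5087 and 4949.9 CPM after LCWE (-0.80 ± 0.24, edgeR adjusted p = 0.0634, not called).

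The arterial list lost all calls without PBS library 1, PBS library 3, LCWE library 1, LCWE library 3 or LCWE library 5, and without LCWE libraries 4 and 5 together, when its median was -0.41. It held 1 call without LCWE library 4, wild-type PBS library 1 or 2, or wild-type LCWE library 1, 2 without wild-type PBS library 3 or 4, and 6 without PBS library 2 or wild-type LCWE library 3. Genes of nitric oxide signalling, the pathway in the study's title, held 0 calls by edgeR among 12 tested genes (median -0.17). DESeq2 called 2 as lower, beside 774 of all 14301 tested genes. Limma-voom with library weights called 2 as higher and 1 as lower, beside 560 and 855 of all tested genes. Leaving out 1 library gave 0 to 2 raised and 0 to 4 lowered genes of the list by edgeR. Nos3, the endothelial nitric oxide synthase, was at 141, 113 and 118 CPM after PBS and 116, 128, 100.4, 70.1 and 92.9 CPM after LCWE (-0.29 ± 0.17, edgeR adjusted p = 0.294, not called). The groups overlapped, with LCWE library 4 the lowest. Of 16 smooth muscle and pericyte genes none was called, and Acta2, smooth muscle actin, was at 98.9, 111 and 109 CPM after PBS and 737, 676, 659, 119 and 275 CPM after LCWE (2.21 ± 0.62, edgeR adjusted p = 0.0583, not called). All LCWE libraries were above all PBS libraries for Acta2, with libraries 1 to 3 far above libraries 4 and 5.

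**Figure D3:**
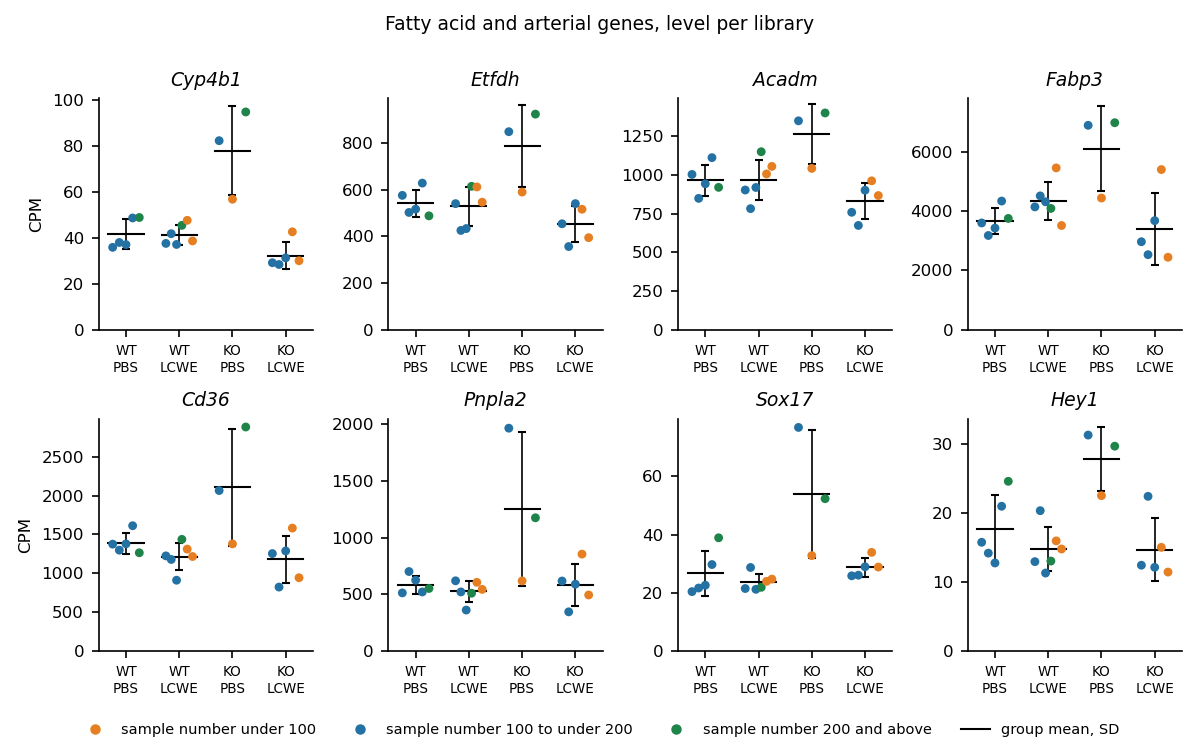
CPM on a linear axis (y) of 8 fatty acid and arterial genes in each Mcm8 knockout library after PBS (3 points) and LCWE (5 points), with wild-type libraries beside them, colours for the range of the sample number, a bar at each group mean and whiskers of 1 SD. Etfdh in the 5 LCWE libraries lies between 357 and 541 CPM, below all 3 PBS libraries, of which PBS library 2 is the lowest.

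Genes of the mitochondrial quality pathway that the study's title names were examined next. Of 22 mitophagy genes 1 fell, beside 2.08% of all tested genes, so the count is not read as a result about the list. The lowered gene was Bnip3 (chromosome 7, 138890836 to 138909519), a mitophagy receptor of the outer mitochondrial membrane, at 489, 126 and 199 CPM after PBS and 95.5, 65.8, 102, 158 and 100.1 CPM after LCWE (-1.38 ± 0.30, edgeR adjusted p = 0.0304). PBS library 1 was far above the other libraries, and LCWE library 4 lay above PBS library 2. Bnip3 was not called without PBS library 1, LCWE library 1, LCWE library 3 or LCWE library 5. Pink1, a kinase that marks damaged mitochondria, was at 1180.4, 987 and 1118 CPM after PBS and 668, 617, 782, 1009.8 and 971 CPM after LCWE (-0.44 ± 0.18, edgeR adjusted p = 0.146, not called), and its groups overlapped. The median of the 22 mitophagy genes was -0.29, and it ran from -0.44 to -0.12 when 1 library was left out. Within the libraries numbered under 100 it was 0.03, with 14 of 22 genes above 0, and within those numbered 100 to under 200 it was -0.56. The 22 genes of mitochondrial biogenesis and dynamics had a median of -0.08 with 0 called.

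Some heat shock genes were among the lowered genes. The heat shock response is run by the factor HSF1, which binds inverted repeats of GAA, and its chaperones hold or refold damaged proteins. Of 25 tested chaperone genes 5 fell and 0 rose, Hspa1a, Hspa1b, Bag3, Hspb8 and Dnajb4, with 21 of 25 below 0 and a median of -0.39. Promoter stretches of 3 of them are printed to show the repeat, from RefSeq promoters on GRCm38.p6. The capitals mark GAANNTTC, searched as these letters on both strands, which for this motif read the same. Hspa1a and Hspa1b share 1 stretch at chr17:34972233-34972280 and chr17:34959315-34959362, both on the minus strand, with the match at position -104 from the start site. That of Bag3 is chr7:128523605-128523632 on the plus strand, with the match at position 42.
Hspa1a: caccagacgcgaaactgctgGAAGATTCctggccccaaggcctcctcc
Hspa1b: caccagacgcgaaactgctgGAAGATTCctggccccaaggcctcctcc
Bag3: aagttctctggatgggaccaGAAGTTTC
The motif was in 7.95% of 27025 promoters of 300 bases and in 10 of 20 heat shock genes that had a promoter in the table. It was in 4 of the 5 lowered ones, and in 5.91% of the promoters of 237 lowered genes of all kinds. A match is a description of the letters and not a site in use.

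Hspa1b (chromosome 17, 34956436 to 34959238), an inducible HSP70, was at 8.47, 4.80 and 60.6 CPM after PBS and 2.63, 8.18, 2.17, 3.39 and 2.34 CPM after LCWE (-2.71 ± 0.57, edgeR adjusted p = 0.0301). PBS library 3 was far above all others, and LCWE library 2 exceeded PBS library 2. Hspa1a, its near-identical neighbour, was at 8.19, 5.97 and 39.6 CPM after PBS and 3.40, 8.37, 2.62, 3.52 and 2.54 CPM after LCWE (-2.12 ± 0.49, edgeR adjusted p = 0.0346), with the same 2 libraries standing out. Reads of this pair can be shared by the authors' counting, so the 2 values are not independent and each is uncertain. Bag3, a co-chaperone of HSP70 in muscle, was at 666, 271 and 411 CPM after PBS and 219.9, 270.0, 180.2, 226 and 208 CPM after LCWE (-1.02 ± 0.24, edgeR adjusted p = 0.0346). Every LCWE library was below every PBS library, LCWE library 2 and PBS library 2 nearly touching. Hspb8, the small heat shock protein that partners BAG3, was at 606, 562 and 632 CPM after PBS and 393, 458, 375, 487 and 392.2 CPM after LCWE (-0.51 ± 0.12, edgeR adjusted p = 0.0355), without overlap. No gene of the list was called without PBS library 1 or 3 or LCWE library 1, 3 or 5, 1 was called without LCWE libraries 4 and 5 together, 3 without LCWE library 4, 8 without LCWE library 2 and 10 without PBS library 2.

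The unfolded protein response of the endoplasmic reticulum and the integrated stress response gave 3 lowered genes of 28 tested. These were Ddit4, Dnajc3 and Herpud1, and the list had a median of -0.50 with 23 below 0. In wild type the median of the list was -0.16, with 4 of the 28 genes above 0. Ddit4, a stress-induced inhibitor of mTORC1, was at 311, 122.95 and 139 CPM after PBS and 63.5, 73.7, 63.5, 97.4 and 42.5 CPM after LCWE (-1.49 ± 0.30, edgeR adjusted p = 0.0299). All LCWE libraries were below all PBS libraries. Herpud1, which takes part in degradation at the endoplasmic reticulum, was at 597, 341 and 466 CPM after PBS and 159, 104, 166, 344 and 217 CPM after LCWE (-1.24 ± 0.33, edgeR adjusted p = 0.0466). Hspa5, the chaperone BiP of the same response, was at 848, 469.9 and 1818 CPM after PBS and 387, 535, 396, 576 and 745 CPM after LCWE (-0.99 ± 0.34, edgeR adjusted p = 0.0969, not called), highest in PBS library 3. Without PBS library 1 or LCWE library 1, 3 or 5 no gene of this list was called, without PBS library 3 it was 1, and without PBS library 2 14 fell and 1 rose. The median was -0.17 without PBS library 3 and -0.75 without PBS library 2. Within the libraries numbered under 100 it was 0.12, with 16 of 28 genes above 0, and within those numbered 100 to under 200 it was -0.26.

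Clock genes and glucocorticoid targets gave 3 calls, all lower. Of 20 circadian genes 2 fell, among them Cry1, and 17 were below 0 (median -0.77, wild type 0.22). Cry1 (chromosome 10, 85131700 to 85185064), a repressor in the clock loop, was at 34.4, 19.7 and 23.05 CPM after PBS and 13.9, 19.1, 13.5, 12.3 and 11.2 CPM after LCWE (-0.88 ± 0.22, edgeR adjusted p = 0.0423), without overlap. The stretch of its RefSeq promoter at chr10:85185089-85185134 on the minus strand (GRCm38.p6) holds the E-box CACGTG, the site of the CLOCK and BMAL1 pair, shown in capitals at position -60 from the start site.
Cry1: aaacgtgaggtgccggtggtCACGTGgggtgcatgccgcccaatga
CACGTG reads the same on both strands, and was in 7.24% of all promoters and in 5 of 17 clock genes in the table. It was in 10.1% of the promoters of tested genes and in 9.28% of those of 237 lowered genes of all kinds. Per2, a partner of Cry1 in repression, was at 129.8, 26.0 and 95.7 CPM after PBS and 9.97, 14.4, 6.07, 32.2 and 52.0 CPM after LCWE (-1.87 ± 0.62, edgeR adjusted p = 0.0899, not called), and Dbp, a clock output factor, at 23.1, 5.90 and 22.1 CPM after PBS and 11.7, 4.87, 11.6, 19.4 and 112 CPM after LCWE (0.91 ± 0.95, edgeR adjusted p = 0.592, not called). PBS libraries 1 and 3 were high for Per2, and LCWE library 5 was far above all others for Dbp. The median of the clock list was -0.19 without PBS library 1 and -1.03, with 8 called, without PBS library 2. It was 0.55 within the libraries numbered under 100, with 14 of 20 genes above 0, and -1.81 within those numbered 100 to under 200. The time of day of sampling is not given in the labels.

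Tsc22d3, the glucocorticoid-induced leucine zipper GILZ, was the 1 called of 15 glucocorticoid targets (median -0.66), at 244, 131 and 122 CPM after PBS and 87.3, 71.1, 77.2, 85.9 and 74.6 CPM after LCWE (-1.07 ± 0.19, edgeR adjusted p = 0.0147). Every LCWE library was below every PBS library, and PBS library 1 was the highest. Tsc22d3 was not called without PBS library 1 or LCWE library 5. In wild type the glucocorticoid list had a median of -0.14, with 7 of the 15 genes above 0. The median of the glucocorticoid list was -0.22 without PBS library 1 and -0.97 without LCWE library 4, and it was -0.01 within the libraries numbered under 100 and -1.64 within those numbered 100 to under 200. Nr4a3, an immediate early nuclear receptor, was at 76.7, 3.70 and 8.29 CPM after PBS and 5.26, 4.61, 4.42, 3.25 and 6.31 CPM after LCWE (-2.63 ± 0.65, edgeR adjusted p = 0.0418). PBS library 1 was far above all others, and PBS library 2 lay inside the LCWE range. Of 20 antioxidant genes 2 fell. Gclm, the modifier subunit of glutathione synthesis, was at 35.4, 15.4 and 37.3 CPM after PBS and 13.3, 12.7, 16.5, 17.6 and 12.2 CPM after LCWE (-1.02 ± 0.22, edgeR adjusted p = 0.0301), and Cat, catalase, at 357, 232 and 537 CPM after PBS and 178, 141, 194, 276 and 176 CPM after LCWE (-0.96 ± 0.22, edgeR adjusted p = 0.0334). In both genes PBS library 2 was the PBS library inside the LCWE range.

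**Figure D4:**
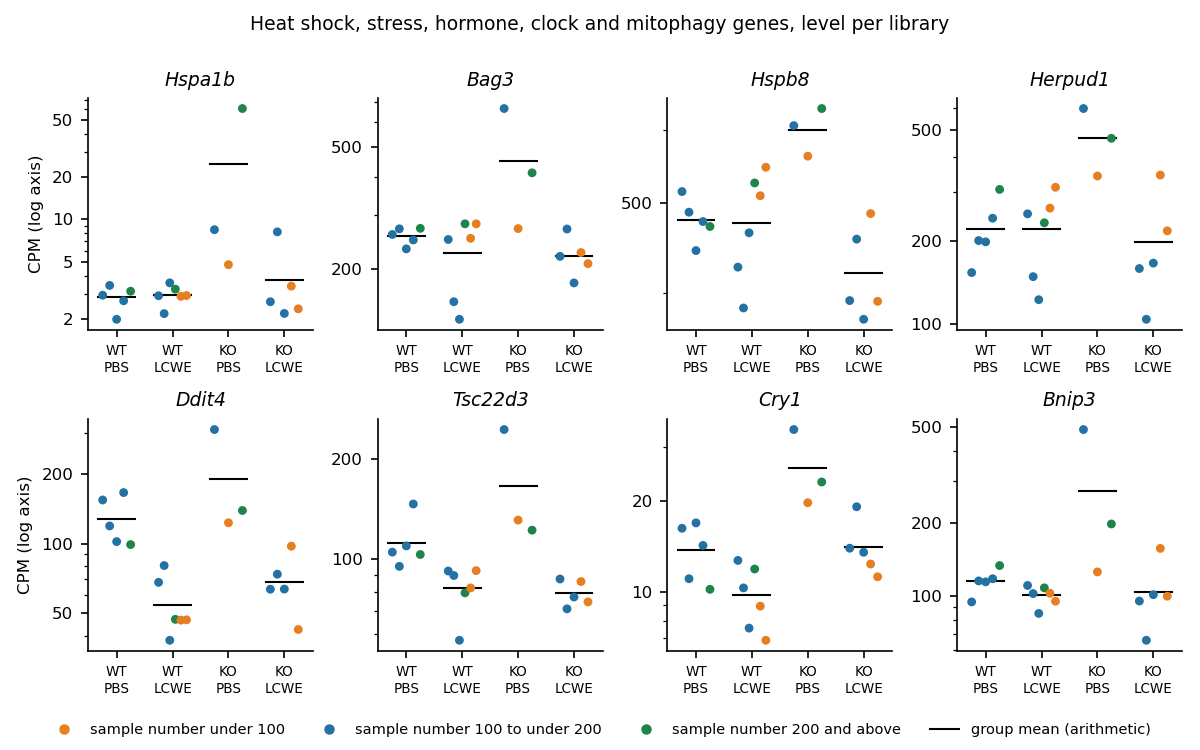
CPM on a log axis (y) of 8 heat shock, stress, clock, glucocorticoid-induced and mitophagy genes in each Mcm8 knockout library after PBS (3 points) and LCWE (5 points), with wild-type libraries beside them, colours for the range of the sample number and a bar at each group mean. Bag3 in the 5 LCWE libraries lies between 180 and 270 CPM, and PBS library 1 is the highest at 666 CPM.

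Muscle, matrix and replication genes gave 1 or 2 calls a list, beside 2.9% of all tested genes called. They are given as values of single genes and not as results about the lists. Actc1, cardiac actin, was the 1 called of 18 sarcomere genes, at 4530.4, 11278 and 6921 CPM after PBS and 16718, 17918, 18380.5, 9091 and 11632 CPM after LCWE (0.96 ± 0.25, edgeR adjusted p = 0.0444). LCWE library 4 lay below PBS library 2. Kcnq1, the channel of the slow repolarising potassium current, was at 34.0, 46.8 and 40.0 CPM after PBS and 57.7, 53.2, 58.0, 54.1 and 61.8 CPM after LCWE (0.50 ± 0.13, edgeR adjusted p = 0.0437), without overlap. Nppb, the B-type natriuretic peptide precursor raised by load, was at 155, 180.0 and 199.9 CPM after PBS and 610.3, 618, 608, 334 and 301 CPM after LCWE (1.47 ± 0.42, edgeR adjusted p = 0.058, not called), although every LCWE library lay above every PBS library. Dpt, the matrix protein dermatopontin, was the 1 called of 16 fibroblast genes, at 35.4, 92.2 and 48.3 CPM after PBS and 128, 149, 114, 122 and 69.5 CPM after LCWE (0.99 ± 0.26, edgeR adjusted p = 0.0457). Of 28 matrix genes Efemp2, the fibulin-4 of elastic fibres, rose by 1.10 ± 0.25 and Col11a2, a fibrillar collagen chain, fell by 1.58 ± 0.26 on the log2 scale (edgeR adjusted p = 0.0327 and 0.0116). Mcm3, a subunit of the replicative helicase related to MCM8, was at 7.91, 7.89 and 6.93 CPM after PBS and 12.8, 13.8, 12.9, 10.6 and 12.9 CPM after LCWE (0.74 ± 0.19, edgeR adjusted p = 0.0438), the 1 called of 22 replication genes, without overlap. No gene was called among 40 cytosolic ribosomal proteins (median 0.20, wild type 0.39) or 23 cell cycle genes (median 0.68, wild type 0.24). Without PBS library 2, 9 cell cycle genes were called with a median of 1.14, and without PBS library 3 the median was 0.49. Within the libraries numbered under 100 the cell cycle median was -0.07, with 14 of 23 genes below 0. Without PBS library 2 the calls were also 9 of the fibroblast genes, 9 of the resident macrophage genes and 10 of the matrix genes, of which 8 rose. They were also 8 of the mitophagy genes, 8 of the antioxidant genes and 6 of the inflammasome genes. That fit called 2935 of 14528 tested genes, 1396 raised and 1539 lowered. Its list counts, with that of the cell cycle genes, are therefore not set against 2.9%. The matrix median was 0.73 with all libraries and -0.41 within those numbered under 100, with 24 of 28 genes below 0.

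**Figure D5:**
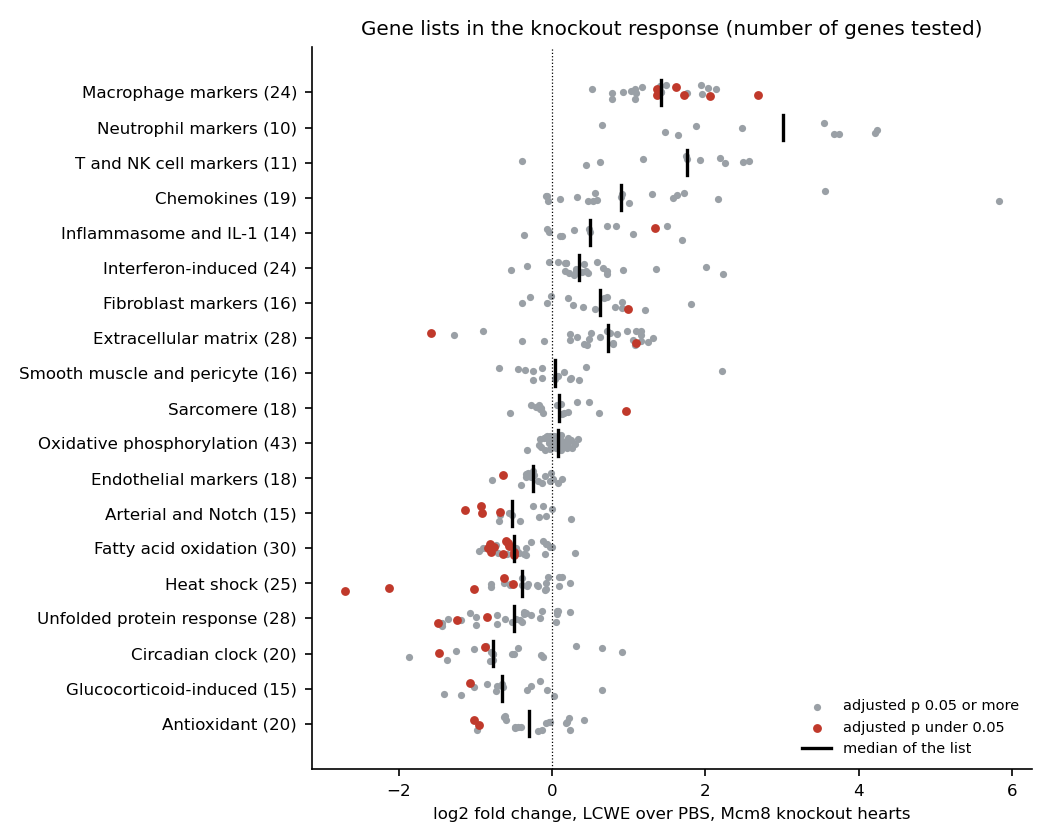
Log2 fold changes between LCWE and PBS in Mcm8 knockout hearts (x axis) of the tested genes of 19 gene lists (y axis), with called genes in red, others in grey and a bar at each list's median. The macrophage genes all lie above 0 with a median of 1.41, and 29 of the 30 fatty acid oxidation genes lie below 0.

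The smallest p-value belonged to Cyp4b1 (chromosome 4, 115624725 to 115647723), a cytochrome P450 that hydroxylates fatty acids and foreign compounds, at 82.1, 56.7 and 94.6 CPM after PBS and 29.1, 28.4, 31.2, 42.6 and 30.0 CPM after LCWE (-1.27 ± 0.16, edgeR adjusted p = 0.00203). It was 2.41-fold lower after LCWE, every LCWE library lay below every PBS library, and it was the 1 gene still called without PBS library 1 (-1.23, edgeR adjusted p = 0.0318). Als2cl, a relative of the Rab5 activator alsin, was at 152, 95.9 and 136.2 CPM after PBS and 74.8, 74.0, 64.1, 71.4 and 60.0 CPM after LCWE (-0.89 ± 0.14, edgeR adjusted p = 0.0106). Dock9, an activator of the GTPase CDC42, was at 159, 105 and 129 CPM after PBS and 76.4, 74.8, 65.0, 83.2 and 85.7 CPM after LCWE (-0.76 ± 0.12, edgeR adjusted p = 0.0106). Neither overlapped. Rasgrp2, an activator of the GTPase RAP1, fell by 1.10 ± 0.18 on the log2 scale and Il17rd, an inhibitor of FGF signalling, by 0.79 ± 0.13 (edgeR adjusted p = 0.0106 and 0.0123), both without overlap.

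Among raised genes the smallest p belonged to Olfml3, a secreted matrix glycoprotein, at 6.72, 15.7 and 11.1 CPM after PBS and 24.0, 22.4, 22.6, 25.8 and 20.04 CPM after LCWE (1.04 ± 0.19, edgeR adjusted p = 0.0147). Macroh2a2, a histone variant of silent chromatin, was at 4.76, 6.45 and 4.29 CPM after PBS and 9.82, 11.2, 8.77, 9.01 and 12.2 CPM after LCWE (0.98 ± 0.19, edgeR adjusted p = 0.0227), and Tuba4a, an alpha tubulin, at 341, 954 and 464 CPM after PBS and 1627, 1645, 1863, 1132 and 1346 CPM after LCWE (1.38 ± 0.28, edgeR adjusted p = 0.0293). In these 3 genes no library overlapped between groups. Gas7 rose by 1.06 ± 0.23, Rrad, a GTPase that inhibits L-type calcium channels, by 1.31 ± 0.28, and Tab1, an activator of the kinase TAK1, by 0.77 ± 0.17 on the log2 scale (edgeR adjusted p = 0.0301, 0.031 and 0.0322). LCWE library 2 lay inside the PBS range for Rrad and Tab1.

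The difference between the knockout and wild-type responses was tested as an interaction. The interaction was called for 0 of 14301 genes by edgeR (1145 at an unadjusted p under 0.05), for 0 by limma-voom, 5 by DESeq2 and 21 by limma-voom with library weights. So none of the genes above can be said to respond differently in the knockout by the edgeR test. Between wild-type LCWE and PBS hearts edgeR called 0 genes (892 at an unadjusted p under 0.05). Cyp4b1 came nearest, with an interaction of -1.26 ± 0.21, edgeR adjusted p = 0.121. It was at 35.8, 37.9, 37.0, 48.6 and 48.8 CPM in wild type after PBS and at 37.1 to 47.5 CPM with a median of 40.2 after LCWE, so that the knockout PBS libraries stood above every wild-type library. Macroh2a2 followed among positive differences (1.18 ± 0.24, edgeR adjusted p = 0.312), and Fabp3 was also lower in the knockout response (-1.09 ± 0.28, edgeR adjusted p = 0.527). Of the 298 lowered genes 297 had the knockout PBS mean as the most extreme of the 4 group means, and of the raised genes 113 (96.6%). Of all genes with the same sign it was 77.0% and 76.0%. The knockout PBS libraries took part in the choice of the called genes, so this is a description and not a test of genotype. The wild-type medians over these lowered and raised genes were -0.14 and 0.24. The wild-type difference had the same sign for 252 of the 298 lowered genes (84.6%) and for 99 of the raised genes (84.6%). Among all tested genes below and above 0 in the knockout it was 65.0% and 67.5%. Between knockout and wild type 86 genes (0.601%) were called after PBS, and 1 (Mcm8, 0.00699%) after LCWE. The comparison of genotypes after PBS shares the knockout PBS libraries with the LCWE response, so its count stands beside the other only as a value.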

How the data were processed

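Heart RNA of 19 mouse samples was copied to cDNA and preamplified with a kit for whole transcriptomes, per the labels' protocols. The deposited table gives raw counts, whole numbers for each of 25239 gene symbols. The submitters' processing notes name STAR 2.7.8a, limma and the build GRCm38. Which program counted reads, with which annotation and strand setting, is not given in the sources used here, so overlapping and antisense genes can share reads. Each column matched the label of 1 sample, and the table held 0 further sample columns.

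Groups followed genotype and treatment in the labels. The test was edgeR 4.0.16 (R 4.3.3) on the deposited counts: filterByExpr with a minimum count of 10 and a minimum total of 15, TMM scaling, and 1 robust quasi-likelihood model of all 4 groups, which share its estimate of spread. CPM use TMM-scaled library sizes. Total counts were 11853233 to 16145911 a library, so counting error is small except for low genes. Coordinates are from GENCODE M21 and promoters from RefSeq. A few genes are not reported here.

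Named genes were Mcm8, the 12 called in each direction by smallest p and the 8 by size, at a mean of at least 5 CPM, up to 6 called members of each of 52 lists, up to 3 members not called, and a fixed set, of which some are omitted. Hadha, Decr1, Acaa2, Eci2, Hspa5, Myh6, Il1b, tubulins and histones were named after their values were seen or as tissue checks. Members and lists were chosen with earlier results of these data known. Alternatives were RLE factors, library totals, other filters (5 CPM in 3 libraries), DESeq2 1.42.0, limma-voom (limma 3.58.1), covariates, 1 surrogate variable (sva 3.50.0) and leaving out each library. The fit was tested on simulated counts. These were drawn with no outlying library and no split by sex-linked transcripts or label number, so that test cannot address the dependence on single libraries.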

Additional observations from a re-analysis of the deposited data

Results flagged for a closer look

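With 5 knockout LCWE libraries, a library was noted where its gap to the nearest other library, divided by the range of the 5, exceeded Dixon's 95% critical value. Chance gives such a gap in about 1 in 20 groups, and groups of 3 PBS libraries were not examined. In LCWE library 2 this held for Hspa1a 8.37 (nearest other 3.52), Hspa1b 8.18 (nearest other 3.39) and Tab1 40.9 (nearest other 57.0), in CPM. In LCWE library 4 this held for Cxcl13 20.9 (nearest other 1.30), Cyp4b1 42.6 (nearest other 31.2), F13a1 94.7 (nearest other 45.2), H4c9 3.59 (nearest other 1.95), Myh6 37081 (nearest other 49580.5), S100a8 21.4 (nearest other 5.14), S100a9 46.96 (nearest other 11.1) and Xist 207 (nearest other 1.95), in CPM. In LCWE library 5 this held for Dbp 112 (nearest other 19.4), in CPM.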

How the results depend on the processing

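With all libraries 415 genes were called by edgeR, 298 of them lowered, and 0 by the interaction. Library totals alone gave 229 (97 raised, 132 lowered), no filter 282 (65 raised), DESeq2 1260 (486 and 774, interaction 5), limma-voom 113 (35 and 78) and limma-voom with library weights 1415 (560 and 855, interaction 21). As covariates, the label number range gave 116 (28 and 88), the Y-linked level 839 (288 and 551) and the number of genes detected 51 (10 and 41). Fitted alone, the 8 knockout libraries gave 0 in either direction (2371 at an unadjusted p under 0.05), and those numbered under 200 likewise 0 (1667). Chosen after seeing the data, Xist as a covariate gave 1326 (489 and 837), the libraries numbered 100 to under 200 alone 4001 (1907 and 2094, interaction 2230), and leaving out knockout LCWE libraries 4 and 5 together 202 (51 and 151, interaction 2). Leaving out 1 library gave 1 to 2935 called genes, 0 to 1396 raised, 1 to 1539 lowered and an interaction of 0 to 481. RLE factors, a stricter filter, a fit that is not robust and 1 surrogate variable gave 338 to 435.

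Of the 415 genes at least 409 were tested with the same sign under each setting, except under the stricter filter, where it was 356. Of the named genes recomputed under each setting, Dbp (-1.32 to 1.20), Myh7 (-3.71 to 0.20) and Xist (-7.15 to 1.63), none of them called, changed sign under some. No paired analysis was possible because the replicate numbers come from accession order. Genes low in counts, such as Mcm8 (2 to 13 counts) and Saa3 after PBS (1 to 6 counts), are limited by depth. Label number, sex-linked transcripts and Myh7 differ between libraries of 1 group, and within a range of label numbers there is 1 PBS library. Their part in the result was not tested beyond the covariates above, and the cause of the dependence on single libraries was not tested.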

Other observations

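Tubulin and histone genes were looked at after their values had been seen, so they are a description. Of 15 tested tubulin genes 4 rose, Tuba4a (1.38 ± 0.28), Tuba1b (1.08 ± 0.24), Tubb5 (0.85 ± 0.21) and Tubb4b (0.68 ± 0.18), the values being log2 fold changes. The median of the 15 genes was 0.68, beside 0.29 in wild type, and 13 lay above 0. Tubulins are the subunits of microtubules, whose network in heart muscle cells is known to stiffen them.

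Of 14 tested histone genes 4 fell, H3c4 (-3.60 ± 0.74), H4c9 (-2.70 ± 0.58), H2bc4 (-1.22 ± 0.28) and H2bc8 (-2.67 ± 0.65), and 13 lay below 0 with a median of -0.85, beside 0.11 in wild type. For the 4 called genes PBS library 1 was far above PBS libraries 2 and 3: H3c4 was at 9.66 CPM against 1.23 and 0.53, and H4c9 at 37.3 CPM against 3.84 and 2.41. H2bc4 was at 265 CPM in PBS library 1 against 75.6 and 69.4, and H2bc8 at 5.67 CPM against 0.41 and 1.28. Without PBS library 1 the log2 fold change of H4c9 was -0.49 (edgeR adjusted p = 0.586), and none of the 3 others was called in that fit. Replication-dependent histone messages mostly lack a poly(A) tail. H1f2, which was not called, lay at 423 CPM in PBS library 1, 38.3 in PBS library 2 and 85.1 in PBS library 3, so PBS library 1 was the highest for H1f2. Called genes had a median length of 3029 bases (raised) and 4072 (lowered), beside 3352 for all tested genes. Their median GC content was 49.99% and 49.8%, beside 49.9%, and the median of their mean levels was 10.7 and 37.9 CPM, beside 18.3.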
